A study of Mus musculus with 44 samples.

Results

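Oocytes and the granulosa cells around them exchange secreted factors, and 8 genes of that exchange were followed here in mouse ovarian follicles given perfluorononanoic acid (PFNA), a fluorinated surfactant. They were every row of the 2 expression tables whose symbol is Gdf9, Bmp15, Bmp6, Kit, Kitl, Bmpr1a, Bmpr1b or Bmpr2. All 8 were found in both tables, among 22673 genes in one and 18272 in the other. The series holds 44 RNA-seq libraries of follicles from wild-type CD-1 mice, an outbred strain. In the maturation window, 11 control libraries given DMSO, the solvent, were set against 10 given PFNA. In the ovulation window, 12 control libraries given hCG, the gonadotropin that triggers ovulation, were set against 11 given hCG and PFNA. PFNA dose, exposure times and animal age were not given in the sources used here. Nothing in the labels says how many follicles or animals stand behind a library, so the p-values below measure the spread between these libraries, which may be technical. The RNA is a bulk extract of whole follicles, in which fewer cells of a type and less RNA per cell cannot be told apart.

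GDF9, BMP15 and BMP6 are secreted ligands of the TGF-beta family. GDF9 and BMP15 are made by the oocyte and act on granulosa and cumulus cells, where they sustain follicle growth and the expansion of the cumulus mass. BMPR2 is the type II receptor that both use, BMPR1B is the type I receptor used by BMP15, and BMPR1A is another BMP type I receptor. Activated type I receptors phosphorylate SMAD proteins, which enter the nucleus and switch on targets such as the Id genes. KITL (KIT ligand, stem cell factor) is made by granulosa cells, and its receptor tyrosine kinase KIT sits on the oocyte and also on theca and other cells, with PI3-kinase and AKT downstream. For the comparisons, Gdf9, Bmp15, Bmp6 and Kit were grouped as oocyte-made, and Kitl, Bmpr1a, Bmpr1b and Bmpr2 as granulosa-made.

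In GRCm38 coordinates, Gdf9 lies on the plus strand at chr11:53431023-53437904 and Bmp15 on the minus strand at chrX:6314107-6320721. Bmp6 spans chr13:38345107-38500302 on the plus strand and overlaps Txndc5 and the antisense gene 4930579J19Rik on the other strand. Kit lies at chr5:75574916-75656722 and Kitl at chr10:100015630-100100416, both on the plus strand. Bmpr1a spans chr14:34410734-34503341 on the minus strand with the antisense gene Gm17110 over it, Bmpr1b spans chr3:141837136-142169425 on the minus strand, and Bmpr2 spans chr1:59763400-59879014 on the plus strand and overlaps the unclassified gene Gm38125 on the same strand. Each span covers exons and introns of the whole gene, as the maturation table and GENCODE M21 both give it; the spans of the ovulation table equal GENCODE M21 for 1 of the 8 genes. Whether counting used strand was not given in the sources used here, so reads of Bmp6 and Bmpr1a cannot be told apart from those of their overlapping partners, nor can reads of Bmpr2 where Gm38125 overlaps it.

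The promoters of 3 ligands whose levels moved in different ways are shown first, to set an oocyte gene (Bmp15), a ligand that fell with PFNA in the ovulation window (Bmp6) and the granulosa ligand (Kitl) side by side. Each line holds the 250 bases before the annotated start, 5' to 3' on the gene's strand, from RefSeq for GRCm38.p6, at chrX:6320725-6320974 for Bmp15, chr13:38345466-38345715 for Bmp6 and chr10:100015571-100015820 for Kitl. These starts are those of the ovulation table (6320724, 38345716 and 100015821). They differ from the GENCODE M21 spans above, so the Bmp6 stretch lies inside its GENCODE span and the Kitl stretch lies mostly inside. Capitals mark matches to an E-box (CANNTG) or a GC box (GGGCGG) on either strand.
Bmp15: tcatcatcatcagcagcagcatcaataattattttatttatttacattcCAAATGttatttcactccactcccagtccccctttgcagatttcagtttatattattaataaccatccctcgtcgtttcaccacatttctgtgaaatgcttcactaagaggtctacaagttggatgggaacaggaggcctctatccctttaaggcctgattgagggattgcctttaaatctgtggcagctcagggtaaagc
Bmp6: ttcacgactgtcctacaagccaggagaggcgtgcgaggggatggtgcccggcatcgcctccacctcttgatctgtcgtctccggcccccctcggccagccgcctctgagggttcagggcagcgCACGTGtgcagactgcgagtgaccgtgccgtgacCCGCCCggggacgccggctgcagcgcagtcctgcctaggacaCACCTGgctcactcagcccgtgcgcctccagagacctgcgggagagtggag
Kitl: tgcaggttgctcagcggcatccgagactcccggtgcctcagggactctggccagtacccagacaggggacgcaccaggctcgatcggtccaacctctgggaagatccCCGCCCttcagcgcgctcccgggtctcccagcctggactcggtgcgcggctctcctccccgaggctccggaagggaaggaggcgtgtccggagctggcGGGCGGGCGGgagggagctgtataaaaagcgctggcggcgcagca
The Bmp15 promoter held 1 E-box match, which begins 201 bases before the start, and no GC box. The Bmp6 promoter held 2 E-box matches, at 127 and 51 bases before the start, and 1 GC box. The Kitl promoter held 3 GC box matches, of which 2 overlap, and no E-box in the 250 bases shown. Its window of 300 bases, used for the shares below, held 1 E-box match, at 10 bases after the start. The NOBOX element (TAATTG) was found in neither the Bmp15, the Bmp6 nor the Kitl window. Over 32851 mouse promoter windows of 300 bases (250 before and 50 after the start), an E-box was found in 72.3%, a GC box in 35.7% and the NOBOX element in 8.0%, so an E-box match is common. A match is a description of the letters and not a bound site. RefSeq promoter windows were found for 7 of the 8 genes; the remaining gene was Gdf9.

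Oocyte content differed between the libraries and moved with the groups. The summed level of 23 oocyte markers (among them Zp1, Zp2, Zp3, Nobox and Zar1) was 231 to 359 TPM (a library share of transcripts corrected for length) in maturation controls, with a median of 340. In the 10 maturation PFNA libraries it had a median of 21.4 and ran from 13.1 to 502 TPM. All 18 tested oocyte markers fell with PFNA in that window, and 7 of 12 granulosa markers fell while 1 rose. In the ovulation window the median sum was 171 in controls and 421 with PFNA, in CPM (counts scaled to library size), 12 of 21 tested oocyte markers rose and none fell, and PFNA replicate 5 stood apart at 23.8. There 9 of 12 granulosa markers were higher and 2 lower (median 1.32 log2 units), and their part in the rises of Kitl and Bmpr1b was not tested. In the ovulation window 5 of 8 theca markers were higher and 1 lower, and 5 of 6 endothelial markers were higher and 0 lower. Over all genes 73.2% were called there, 37.9% as higher and 35.3% as lower, so the 6 of 8 theca markers called are near that share. In the maturation window 0 of 4 tested endothelial markers were called, and Tek was under 1 TPM in every library. Over all genes 29.4% were called in that window, 13.3% as higher and 16.1% as lower. The 5 mast cell markers of the list had no row under their symbols and were not analysed here. In every library the summed granulosa markers were at least 17128 CPM (ovulation) or 17503 TPM (maturation), while surface epithelium markers were at most 58.2 TPM and 26.4 CPM.

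Gdf9 and Bmp15 fell in the maturation PFNA libraries, and no other member passed the threshold there. Of 7 members tested, 2 were called at an adjusted p under 0.05 (limma on log2(TPM + 1), Benjamini-Hochberg over all genes), both lower. Over all 13711 genes tested 29.4% were called, 13.3% as higher and 16.1% as lower, so the share among the members is close to the background. No member had groups that did not overlap, against 1.28% of all genes. For the ovulation libraries, all 8 members were called by edgeR's quasi-likelihood test, 6 higher and 2 lower. There the background was 73.2% of 13435 genes, 37.9% as higher and 35.3% as lower, so a call alone says little about the members. Groups did not overlap for Bmp6, Bmpr1a and Bmpr1b, 3 of the 8, beside 26% of all genes.

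**Figure D1:**
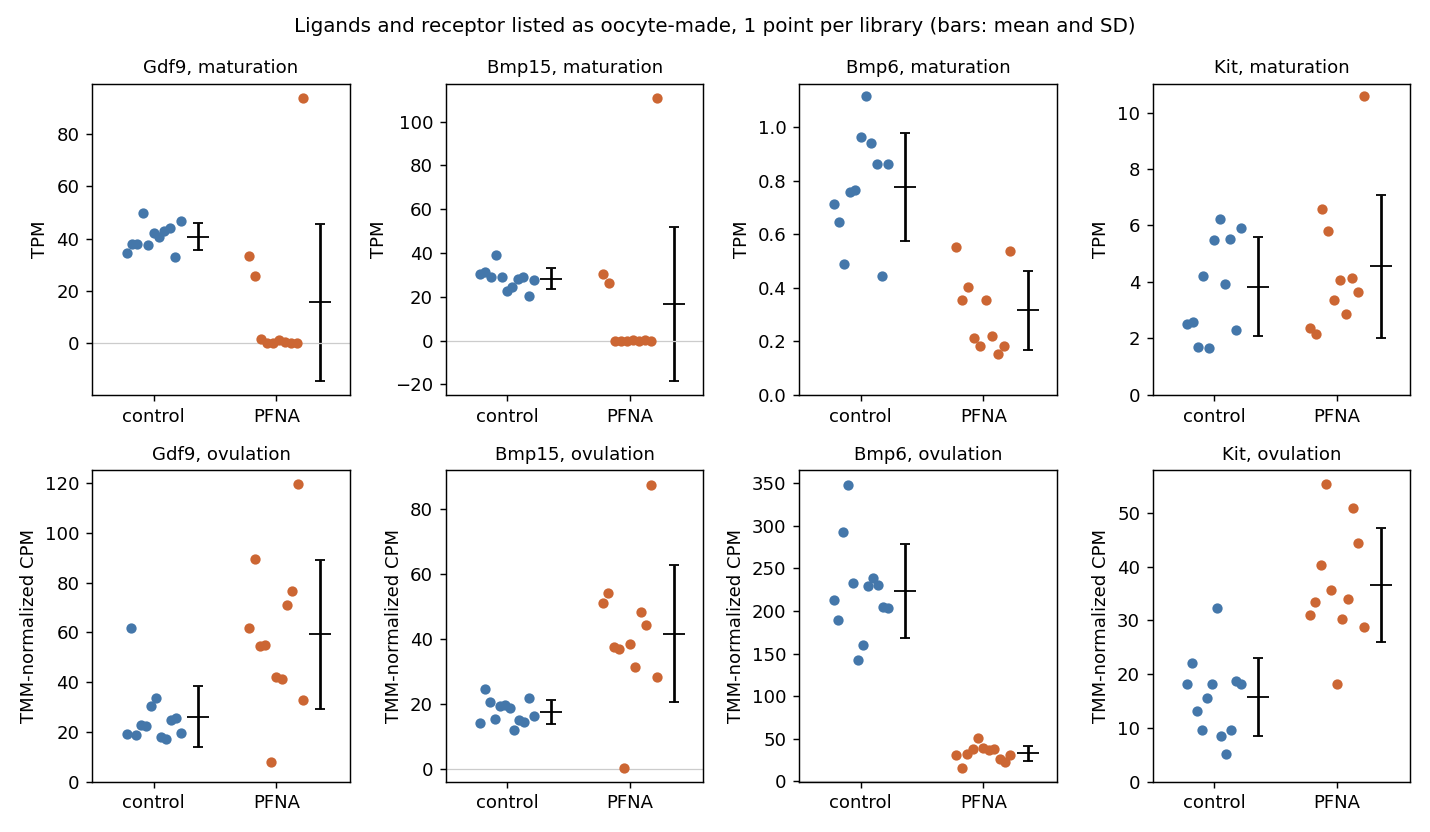
Level of Gdf9, Bmp15, Bmp6 and Kit in each library, with TPM in the maturation window (upper row) and TMM-normalized CPM in the ovulation window (lower row); points are libraries and bars are the mean and SD. In the maturation PFNA group 7 libraries lie near 0 for Gdf9 and Bmp15 but not for Kit, and the 11 ovulation PFNA libraries lie below every control for Bmp6.

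Gdf9, which keeps granulosa cells proliferating and primes the cumulus, had the highest median of the 3 oocyte-grouped ligands in maturation controls. Its level there was 32.8, 40.7 and 49.8 TPM (lowest, median and highest; mean 40.6 ± 5.15 SD, n = 11). In the PFNA libraries it was 0.180, 0.801 and 93.8 TPM (mean 15.7 ± 30.0 SD, n = 10). The PFNA group split widely: 8 of 10 libraries lay below every control, replicate 10 lay above every control at 93.8 TPM, and replicates 1 and 2 stood at 33.2 and 25.6 TPM. Replicates 3 to 9 held 0.180 to 1.57 TPM. Gdf9 fell by 3.31 on the log2(TPM + 1) scale (SE 0.690, limma adjusted p = 0.0011).

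Bmp15, the oocyte ligand that signals with GDF9, followed the same libraries. Controls of the maturation window held 20.2, 29.1 and 39.0 TPM (lowest, median, highest; mean 28.3 ± 4.90 SD, n = 11). PFNA libraries held 0, 0.063 and 110.8 TPM (mean 16.8 ± 35.1 SD, n = 10). Bmp15 was listed at 0 in replicates 3, 4, 5, 7 and 9 and at 0.126 and 0.125 TPM in replicates 6 and 8, while replicates 1, 2 and 10 held 30.3, 26.5 and 110.8 TPM. Thus 7 libraries lay below and 1 lay above every control. Bmp15 fell by 3.17 on the log2(TPM + 1) scale (SE 0.768, limma adjusted p = 0.0038), and with a pseudocount of 0.1 TPM the difference was -5.25 (limma adjusted p = 0.0022). The depth behind these TPM values is unknown, so no floor can be given for a level of 0.

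The falls of Gdf9 and Bmp15 moved with the oocyte markers of the same libraries. With the oocyte marker share of each library as a covariate, the Gdf9 difference was -0.0013 (limma adjusted p = 0.999) and the Bmp15 difference was 0.39 (adjusted p = 0.599), so neither call remained. Set against the summed oocyte markers of each library, the Gdf9 difference, PFNA minus control, was -1.51 log2 units (two-sided permutation test of log2((gene + 0.1) / markers), adjusted p = 0.0071 over 8 tests). The Bmp15 difference on that ratio was -2.43 log2 units (permutation adjusted p = 0.0072). In 7 of 10 PFNA libraries both ratios lay below every control. In those libraries Bmp15 is at or near the pseudocount of 0.1. With a pseudocount of 0.5 the ratio differences were -0.91 for Gdf9 (permutation adjusted p = 0.015) and -0.99 for Bmp15 (permutation adjusted p = 0.053). The marker Tle6 held at least 5.67 TPM in every PFNA library, where the marker sum was as low as 13.1 TPM. Its part in these ratios was not tested. Among the 18 tested markers the changes on the log2(TPM + 1) scale ran from -3.49 (Zar1) to -0.75 (Dazl), with a median of -2.13.

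Both of these ligands rose in the ovulation window. Gdf9 controls held 17.3, 22.6 and 61.7 CPM (lowest, median, highest; mean 26.2 ± 12.3 SD, n = 12), and PFNA libraries held 7.79, 54.8 and 119 CPM (mean 59.3 ± 30.0 SD, n = 11). The groups overlapped: 5 PFNA libraries lay above every control, and replicate 5, the library poor in oocyte markers, lay below every control. Gdf9 was higher by 1.18 log2 units (SE 0.288, edgeR adjusted p = 7.8e-04). For Bmp15, controls held 11.8, 17.4 and 24.5 CPM (mean 17.6 ± 3.73 SD) and PFNA libraries 0.357, 38.5 and 87.6 CPM (mean 41.7 ± 21.1 SD). Here 10 of 11 PFNA libraries lay above every control, and replicate 5 lay below them all with an estimated count of 5. Bmp15 was higher by 1.24 log2 units (SE 0.339, edgeR adjusted p = 0.0021).

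These rises, too, moved with the oocyte markers. With the oocyte marker share as a covariate the Bmp15 effect was 0.12 (edgeR adjusted p = 0.724), while Gdf9 kept its call at 0.48 (adjusted p = 0.0016). Relative to the summed oocyte markers, Bmp15 differed by 0.09 log2 units (permutation adjusted p = 0.750). The Gdf9 ratio was higher by 0.39 log2 units (permutation adjusted p = 0.031), and leaving out any 1 of 6 libraries (PFNA replicates 2, 5 and 10, control replicates 7, 11 and 12) ended that call, with adjusted p up to 0.075. Within groups, Gdf9 tracked the oocyte markers across libraries. In the 11 maturation controls Pearson's r was 0.836 (permutation p = 6.3e-04, adjusted p = 0.0027 over 24 relations) and Spearman's rho was 0.909 (permutation p = 2.3e-04, adjusted p = 0.0018), with r = 0.796 without replicates 6 and 11. In the 11 ovulation PFNA libraries r was 0.956 (permutation p = 2.0e-05, adjusted p = 2.4e-04) and rho was 0.964 (permutation p = 2.0e-05, adjusted p = 4.8e-04), with r = 0.896 without replicates 5 and 10. In the 12 ovulation controls r was 0.819 (permutation p = 0.0040, adjusted p = 0.0096) and rho was 0.790 (permutation p = 0.0033, adjusted p = 0.010), but r was 0.474 without replicates 2 and 7, so this relation rests on those libraries. Gdf9 is itself an oocyte transcript, so these relations share their source.

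**Figure D2:**
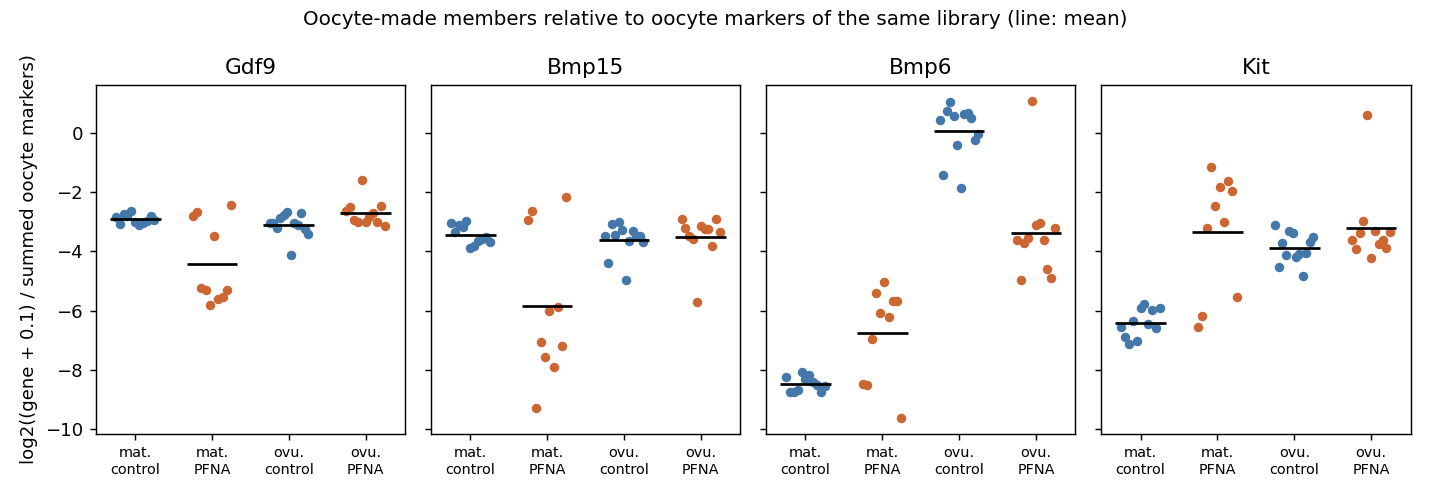
Log2 of each oocyte-grouped gene (plus a pseudocount of 0.1) over the summed oocyte markers of the same library, for the 4 groups; points are libraries and lines are group means. Kit shifts up by 3.06 in the maturation PFNA group, where the oocyte markers fell and Kit itself was not called. Bmp6 shifts by -3.43 in the ovulation PFNA group, where replicate 5 lies above the other libraries.

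Bmp6, a BMP ligand of oocytes and other cells, moved the other way from Gdf9 and Bmp15 in the ovulation window alone. In the maturation window it was a low transcript: controls held 0.443, 0.763 and 1.11 TPM (lowest, median, highest; mean 0.778 ± 0.202 SD, n = 11) and PFNA libraries 0.155, 0.286 and 0.552 TPM (mean 0.315 ± 0.148 SD, n = 10). In that window 8 of 10 PFNA libraries lay below every control, replicates 1 and 10 being the exceptions. Bmp6 was under the minimum mean of 1 TPM and so was not tested there; with no such filter its difference was -0.43 on the log2(TPM + 1) scale (limma adjusted p = 5.5e-04). Relative to the oocyte markers it was higher by 1.71 log2 units (permutation adjusted p = 0.0071), since the markers were lower still.

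After hCG, Bmp6 was abundant in controls and lower in every PFNA library. Controls held 142, 221 and 348 CPM (lowest, median, highest; mean 224 ± 55.2 SD, n = 12), and PFNA libraries held 16.1, 31.9 and 50.4 CPM (mean 32.7 ± 9.25 SD, n = 11). The groups did not overlap, with 11 of 11 PFNA libraries below every control. Bmp6 fell by 2.78 log2 units (SE 0.164, edgeR adjusted p = 2.1e-13), while Gdf9, Bmp15 and the oocyte markers rose. The PFNA library with the fewest oocyte marker reads, replicate 5, had the highest Bmp6 of its group, at 50.4 CPM. Relative to the oocyte markers the Bmp6 difference was -3.43 log2 units (permutation adjusted p = 4.0e-04). In the maturation controls r between Bmp6 and the oocyte markers was 0.731 (permutation p = 0.012, adjusted p = 0.022; rho = 0.636, permutation p = 0.040, adjusted p = 0.073), and it was 0.731 without replicates 6 and 11. Across the 12 ovulation controls r between Bmp6 and the oocyte markers was -0.52 (permutation p = 0.081, adjusted p = 0.122; rho = -0.62, permutation p = 0.035, adjusted p = 0.071) and -0.36 without replicates 2 and 7. Across the 11 ovulation PFNA libraries r was -0.64 (permutation p = 0.067, adjusted p = 0.106; rho = -0.61, permutation p = 0.052, adjusted p = 0.083) and -0.49 without replicates 5 and 10. So Bmp6, grouped as oocyte-made, moved the other way from the oocyte markers in the ovulation window.

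None of the BMP receptors passed the threshold in the maturation window. Bmpr2, the shared type II receptor, held 66.3, 110.7 and 134 TPM in controls (lowest, median, highest; mean 106.6 ± 20.3 SD) and 98.5, 128 and 135 TPM with PFNA (mean 122.4 ± 13.4 SD), a difference of 0.21 (SE 0.103, limma adjusted p = 0.123). Bmpr1a held 10.97, 15.2 and 16.7 TPM in controls and 13.9, 16.3 and 22.4 TPM with PFNA, a difference of 0.17 (SE 0.0781, limma adjusted p = 0.104). Bmpr1b held 8.82, 12.7 and 14.4 TPM in controls and 10.4, 13.2 and 14.9 TPM with PFNA, a difference of 0.06 (SE 0.0801, limma adjusted p = 0.635). Groups overlapped for all 3 receptors. The unadjusted 95% intervals of these log2 differences were 0.00030 to 0.43 for Bmpr2, 0.0089 to 0.33 for Bmpr1a and -0.11 to 0.22 for Bmpr1b.

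After hCG the type I receptors moved in opposite directions with PFNA. Bmpr1a held 233, 281 and 333 CPM in controls (lowest, median, highest; mean 277 ± 28.8 SD, n = 12) and 133, 160.2 and 213 CPM with PFNA (mean 162 ± 21.5 SD, n = 11). All 11 PFNA libraries lay below every control, and Bmpr1a fell by 0.78 log2 units (SE 0.0717, edgeR adjusted p = 4.6e-10). Bmpr1b, the type I receptor used by BMP15, held 190.3, 212 and 228 CPM in controls (mean 209.9 ± 11.6 SD) and 268, 325 and 407 CPM with PFNA (mean 325 ± 48.3 SD). All 11 PFNA libraries lay above every control, and Bmpr1b rose by 0.63 log2 units (SE 0.0679, edgeR adjusted p = 7.1e-09).

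Bmpr2 held 1036, 1238 and 1538 CPM in ovulation controls (mean 1246 ± 149 SD) and 1133, 1382 and 2469 CPM with PFNA (mean 1464 ± 359 SD). The groups overlapped, with 2 PFNA libraries above every control, and the difference was 0.23 log2 units (SE 0.102, edgeR adjusted p = 0.044). The value of 2469 belongs to replicate 6; without it the difference was 0.13 (edgeR adjusted p = 0.113). The call was also lost on leaving out any 1 of 12 other libraries (PFNA replicates 1, 2, 8 and 11, control replicates 1, 2, 6, 7, 9, 10, 11 and 12), with adjusted p between 0.051 and 0.072, and with no filter on low counts (adjusted p = 0.074).

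**Figure D3:**
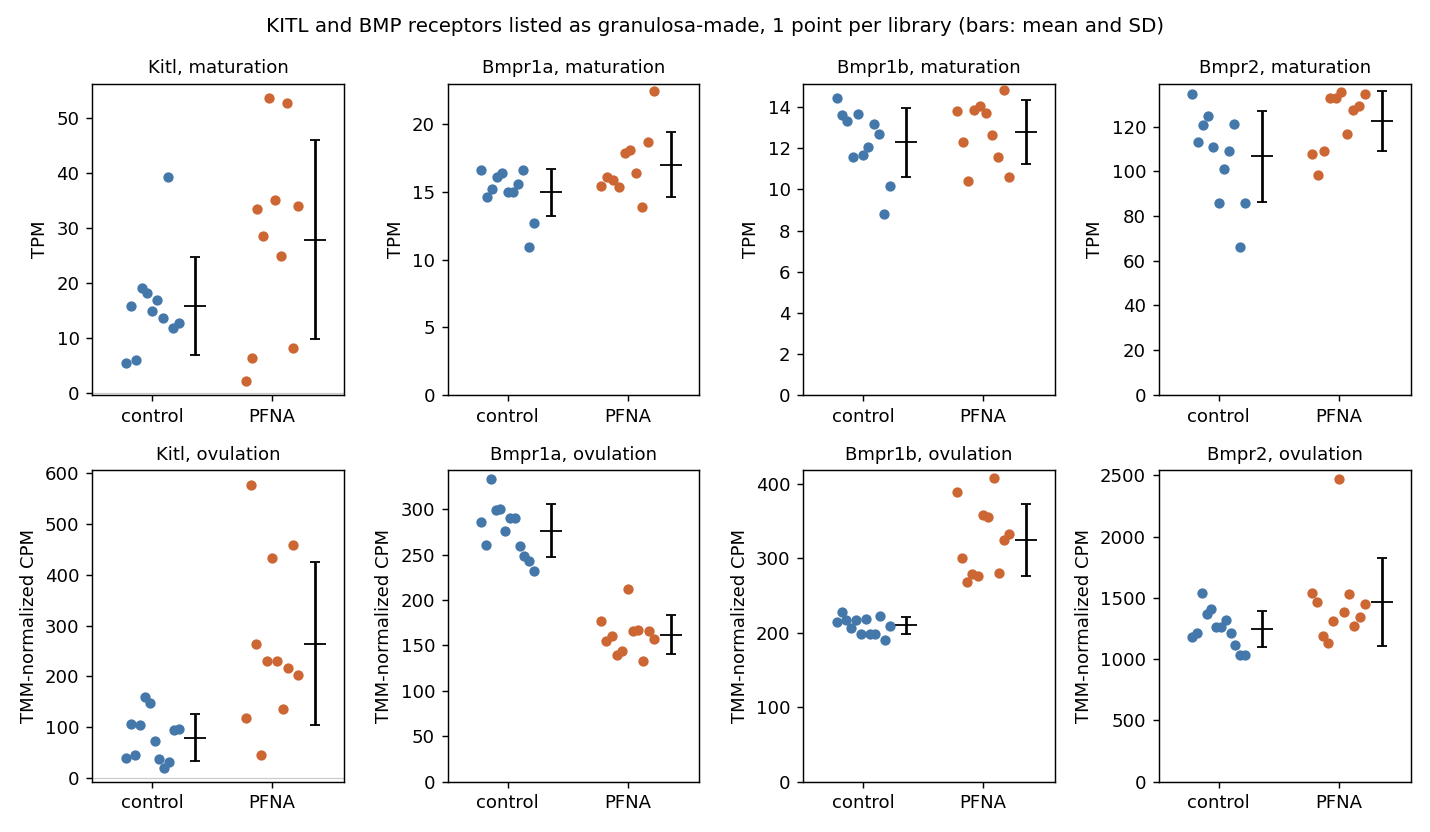
Level of Kitl, Bmpr1a, Bmpr1b and Bmpr2 in each library, in TPM for the maturation window (upper row) and TMM-normalized CPM for the ovulation window (lower row); points are libraries and bars are the mean and SD. In the ovulation window all 11 PFNA libraries lie below the controls for Bmpr1a and above them for Bmpr1b, and Kitl varies most between libraries.

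Kitl, the granulosa ligand of KIT, varied more between libraries than the receptors. In the maturation window controls held 5.38, 14.9 and 39.3 TPM (lowest, median, highest; mean 15.7 ± 8.98 SD, n = 11) and PFNA libraries 2.17, 30.9 and 53.6 TPM (mean 27.8 ± 18.04 SD, n = 10). The groups overlapped, with 2 PFNA libraries above and 1 below every control, and the difference was 0.52 (SE 0.446, 95% interval -0.41 to 1.45, limma adjusted p = 0.407). The lowest PFNA values, 2.17 and 6.24 TPM, belong to replicates 1 and 2, which also kept Gdf9 and Bmp15 near the control level, but replicate 10, the richest in Gdf9 and Bmp15, held 33.9 TPM and replicate 9, poor in both, held 8.07 TPM. After hCG, controls held 21.1, 84.0 and 159 CPM (mean 80.1 ± 45.8 SD) and PFNA libraries 46.4, 229.9 and 577 CPM (mean 265 ± 160.5 SD). There 8 of 11 PFNA libraries lay above every control, and Kitl rose by 1.72 log2 units (SE 0.364, edgeR adjusted p = 1.7e-04), a 3.30-fold change. Tables of whole genes do not separate the soluble and membrane-bound forms of KITL.

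Kitl tracked the theca markers within the control groups. In the 12 ovulation controls r was 0.809 (permutation p = 8.0e-04, adjusted p = 0.0027) and rho was 0.867 (permutation p = 6.3e-04, adjusted p = 0.0038), with r = 0.837 without replicates 4 and 5. In the 11 maturation controls r was 0.790 (permutation p = 0.0040, adjusted p = 0.0096) and rho was 0.727 (permutation p = 0.013, adjusted p = 0.032), with r = 0.609 without replicates 6 and 10. In the 11 ovulation PFNA libraries r was 0.272 (permutation p = 0.423, adjusted p = 0.441) and rho was 0.355 (permutation p = 0.288, adjusted p = 0.329), with r = 0.127 without replicates 6 and 11. The summed theca markers were 188 to 638 CPM in ovulation controls and 467 to 1479 CPM with PFNA, and their part in the Kitl rise was not tested.

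Kit, the receptor, was not called in the maturation window, unlike Gdf9 and Bmp15. Controls held 1.67, 3.93 and 6.22 TPM (lowest, median, highest; mean 3.82 ± 1.75 SD) and PFNA libraries 2.17, 3.86 and 10.6 TPM (mean 4.56 ± 2.53 SD). The groups overlapped, and the difference was 0.19 (SE 0.234, 95% interval -0.30 to 0.67, limma adjusted p = 0.587). In PFNA replicates 3 to 9, where Gdf9 held at most 1.57 TPM, Kit held 2.85 to 6.58 TPM. Relative to the oocyte markers Kit was higher with PFNA by 3.06 log2 units (permutation adjusted p = 6.8e-04), in 8 of 10 libraries above every control. The median marker sum was 340 TPM in controls and 21.4 TPM with PFNA. The ratio thus shows that Kit did not fall with the markers, and not that Kit rose.

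Kit rose in the ovulation window. Controls held 5.16, 16.8 and 32.3 CPM (mean 15.8 ± 7.29 SD) and PFNA libraries 18.1, 33.9 and 55.4 CPM (mean 36.6 ± 10.6 SD), with 7 of 11 above every control. The rise was 1.21 log2 units (SE 0.227, edgeR adjusted p = 4.1e-05). PFNA replicate 5, poor in oocyte markers, held 35.7 CPM. Relative to the oocyte markers the difference was 0.66 log2 units (permutation adjusted p = 0.079). Replicate 5 had the highest ratio of the PFNA group, at 0.59, and the next was -2.98 in replicate 4. Leaving out each library in turn gave ratio differences of 0.28 to 0.76. The Kit rise itself kept its call in 5 of 5 other settings, among them the oocyte marker share as a covariate. Its size there was 1.11 to 1.31 log2 units (edgeR or DESeq2 adjusted p at most 0.0017).

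Kit tracked the endothelial markers (Pecam1, Cdh5, Kdr, Emcn, Tek and Cldn5) within each group examined. In the 11 maturation controls r was 0.876 (permutation p = 7.9e-04, adjusted p = 0.0027) and rho was 0.864 (permutation p = 0.0011, adjusted p = 0.0054), with r = 0.845 without replicates 1 and 6. In the 12 ovulation controls r was 0.882 (permutation p = 1.2e-04, adjusted p = 9.6e-04) and rho was 0.811 (permutation p = 0.0022, adjusted p = 0.0076), with r = 0.809 without replicates 9 and 10. In the 11 ovulation PFNA libraries r was 0.824 (permutation p = 0.0016, adjusted p = 0.0047) and rho was 0.691 (permutation p = 0.023, adjusted p = 0.051), and r was 0.542 without replicates 4 and 6. The oocyte markers tracked Kit as well in the maturation controls, with r = 0.879 (permutation p = 7.5e-04, adjusted p = 0.0027), rho = 0.782 (permutation p = 0.0066, adjusted p = 0.018) and r = 0.844 without replicates 6 and 11. In the ovulation controls r between Kit and the oocyte markers was 0.737 (permutation p = 0.0048, adjusted p = 0.010), with rho = 0.818 (permutation p = 0.0018, adjusted p = 0.0073) and r = 0.647 without replicates 2 and 7. In the ovulation PFNA libraries that r was 0.179 (permutation p = 0.517, adjusted p = 0.517), with rho = 0.591 (permutation p = 0.061, adjusted p = 0.092) and r = 0.648 without replicates 5 and 10. The summed endothelial markers had medians of 97.8 CPM in ovulation controls and 147.6 CPM with PFNA (ranges 37.7 to 120.4 and 39.7 to 337 CPM), and their part in the Kit rise was not tested. Between Kit and the theca markers no relation passed an adjusted p of 0.05. In maturation controls r was 0.294 (permutation adjusted p = 0.416), and 0.765 without replicates 6 and 10. In ovulation controls r was 0.377 (permutation adjusted p = 0.260), and 0.876 without replicates 4 and 5. In ovulation PFNA libraries r was -0.42 (permutation adjusted p = 0.244), and -0.31 without replicates 6 and 11. The maturation PFNA libraries fall into separate clusters of oocyte content and were given no correlation.

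No relation between Kit and its ligand passed an adjusted p of 0.05 across libraries. Between Kit and Kitl r was 0.508 in maturation controls (permutation p = 0.116, adjusted p = 0.163; rho = 0.364, permutation p = 0.274, adjusted p = 0.329) and 0.394 without replicates 1 and 10. In ovulation controls r was 0.613 (permutation p = 0.034, adjusted p = 0.058; rho = 0.497, permutation p = 0.103, adjusted p = 0.137) and 0.266 without replicates 9 and 10. In ovulation PFNA libraries r was -0.42 (permutation p = 0.199, adjusted p = 0.244; rho = -0.18, permutation p = 0.596, adjusted p = 0.644) and -0.12 without replicates 2 and 4.

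**Figure D4:**
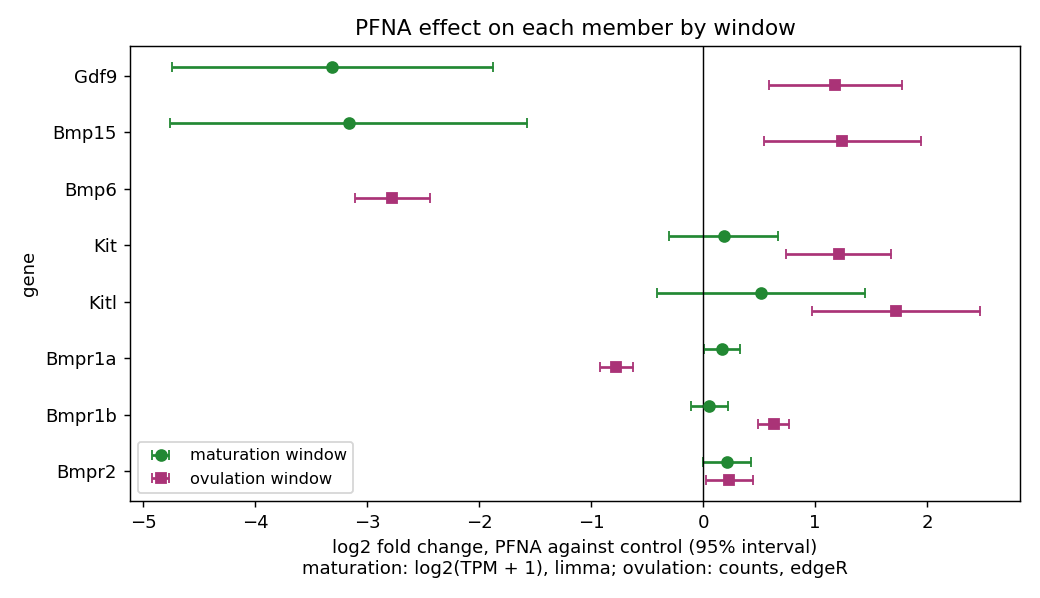
Log2 fold change of PFNA against control for the 8 genes with 95% intervals, circles for the maturation window (limma on log2(TPM + 1)) and squares for the ovulation window (edgeR on counts); Bmp6 was not tested in the maturation window. Gdf9 and Bmp15 lie near -3 in one window and above 1 in the other, and Bmpr2 lies at 0.21 and 0.23.

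The effect of PFNA differed between the windows for 5 of 7 members tested in both, beside 67.7% of 11212 genes (difference of the limma effects within each table). Each table has its own controls and unit, so only effects were compared and not levels. For Gdf9 the ovulation effect was 4.32 log2 units above the maturation effect (95% interval 2.78 to 5.86, limma adjusted p = 1.0e-05). For Bmp15 the difference was 3.996 (interval 2.20 to 5.79, limma adjusted p = 1.7e-04). These intervals overlap, and with a pseudocount of 0.1 TPM the order turned, with 5.37 for Gdf9 and 5.99 for Bmp15. Kit differed by 1.05 (limma adjusted p = 0.0038), Bmpr1b by 0.56 (adjusted p = 1.0e-05) and Bmpr1a by -0.95 (adjusted p = 1.4e-10). The Kitl effects differed by 1.16 with an interval of -0.016 to 2.34 (limma adjusted p = 0.075). For Bmpr2 the difference was -0.0040 with an interval of -0.29 to 0.28 (limma adjusted p = 0.983).

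Per length, the members were ordered within each table. The tables differ in unit, treatment and gene spans, so their orders were not compared. In maturation controls Bmpr2 had the highest median TPM, followed by Gdf9 (40.7) and Bmp15 (29.1), whose ranges overlapped, then Bmpr1a, Kitl and Bmpr1b (12.7 to 15.2, overlapping ranges), then Kit (3.93) and Bmp6 (0.763). In ovulation controls, on CPM per kilobase of the longest coding transcript in GENCODE M21, whose gene spans mostly differ from those of that table, Bmpr2 (96.0), Bmp6 (61.4), Bmpr1a (47.2) and Bmpr1b (39.6) led, each overlapping its neighbour. Kitl (14.9) and Gdf9 (12.6) came next, with overlapping ranges, and then Bmp15 (5.69) and Kit (3.21). With PFNA the Bmp6 median was 8.87 CPM per kilobase and the Gdf9 median stood at 30.5.

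Across all libraries of a table, after subtracting group means, the nearest genes by Pearson's r on log2 values differed by member, given here as a description. Gdf9 lay nearest to Zar1 (r = 0.986), H1f8 (0.978) and Ftdc (0.977) over the 21 maturation libraries, and to Dnmt1 (0.943), Nlrp14 (0.934) and Rspo2 (0.932) over the 23 ovulation libraries. Bmp15 lay nearest to Zar1 (0.993), Ftdc (0.989) and Fbxw18 (0.979), and to Rhpn2 (0.973), C87977 (0.969) and Oas1e (0.968). Bmp6 lay nearest to Tlnrd1 (0.858), Hmces (0.837) and Ywhah (0.774) in the maturation table. In the ovulation table it lay nearest to Arhgap26 (0.926), Baz1a (0.891) and Itgav (0.882). Kit lay nearest to Csf1 (0.918), Nrp1 (0.916) and Plekhg2 (0.913), and to Sparcl1 (0.895), Esam (0.894) and Serpinf1 (0.888), of which Esam encodes an adhesion molecule of endothelial cells. Kitl lay nearest to Akr1b8 (0.880), Aldh1a1 (0.876) and Gstm1 (0.852), and to Akr1b7 (0.818), Greb1 (0.750) and Edem1 (0.743). The receptors had Stau2 (0.932, Bmpr1a), Map3k5 (0.924, Bmpr1b) and Pogz (0.935, Bmpr2) nearest in the maturation table, and Taok1 (0.908), Trpm7 (0.758) and Appbp2 (0.889) in the ovulation table. All of these points share libraries and their oocyte content, and the maturation values include the PFNA libraries that fall into separate clusters of it. Within groups, r between Gdf9 and Bmp15 was 0.484 in maturation controls (permutation adjusted p = 0.173). It was 0.677 in ovulation controls (adjusted p = 0.022) and 0.951 in ovulation PFNA libraries (adjusted p = 2.4e-04). Without 2 libraries each, these were -0.41, 0.410 and 0.900.

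For 3 of 6 other ligands of the family the effect differed between windows, beside 67.7% of all genes. Of 6 tested in the maturation window 1 rose and 2 fell (median log2 change -0.13, beside 0.02 over all genes, of which 29.4% were called). Bmp2, a BMP ligand, rose from 139.8 ± 47.3 to 441.5 ± 137 TPM (1.66 log2 units, limma adjusted p = 1.0e-05), above every control in 10 of 10 libraries. It also rose in the ovulation window, from 295 ± 115 to 616 ± 209 CPM (1.06 log2 units, edgeR adjusted p = 7.9e-05). Inhbb, the inhibin beta B subunit that granulosa cells make, fell by 2.39 log2 units (9173 ± 1394 to 3177 ± 3253 TPM, limma adjusted p = 0.0026). Of 9 tested in the ovulation window 5 rose and 3 fell (median 0.84, beside 0.04 over all genes, of which 73.2% were called). There Inhbb rose from 79.5 ± 54.7 to 824 ± 486 CPM (3.37 log2 units, edgeR adjusted p = 3.7e-08) and Tgfb1 fell by 0.75 log2 units (146.0 ± 14.8 to 86.7 ± 26.6 CPM, edgeR adjusted p = 8.3e-06).

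Among 9 other receptors of the family, 3 rose and 0 fell in the maturation window (median 0.34), and 3 rose and 6 fell in the ovulation window (median -0.51). The 3 of 9 called in the first are near the 29.4% of all genes, and the 3 of 9 higher in the second are near 37.9%. Tgfbr1, the type I receptor through which GDF9 signals, rose in the ovulation window from 562 ± 61.2 to 906 ± 243 CPM (0.69 log2 units, edgeR adjusted p = 5.6e-06). Tgfbr3, the co-receptor betaglycan, rose in all 11 PFNA libraries beyond the controls (28.1 ± 5.01 to 92.4 ± 22.03 CPM). Acvr1, a BMP type I receptor, fell by 0.94 log2 units (66.6 ± 10.4 to 34.7 ± 5.74 CPM, edgeR adjusted p = 1.2e-09), and no PFNA library reached the lowest control. The SMAD list, which includes the inhibitory SMADs and SMURF ligases, had 6 of 12 higher and 0 lower in the maturation window and 1 of 12 higher and 11 lower in the ovulation window, beside 13.3% and 16.1% of all genes in the first and 37.9% and 35.3% in the second. The single higher gene was Smad4, the common partner SMAD, at 183 ± 13.6 and 206 ± 15.4 CPM.

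BMP target genes were called higher in the maturation window and lower in the ovulation window, though not always the same genes: Id2, Smad6 and Smad7 were called in both. In the maturation window 5 of 9 rose and 0 fell (median 0.85), beside 13.3% higher and 16.1% lower over all genes. Id2, an inhibitor of basic helix-loop-helix factors, rose from 145 ± 35.5 to 269 ± 61.6 TPM (0.89 log2 units, limma adjusted p = 7.5e-05), and the inhibitory Smad7 rose from 9.27 ± 3.16 to 20.7 ± 6.02 TPM (1.08, adjusted p = 3.1e-05). After hCG, 0 of 9 rose and 7 fell (median -2.02), beside 37.9% and 35.3% over all genes. Atoh8 and Hes1, both higher in the maturation window, were not called there (-0.80 and -0.13 log2 units, edgeR adjusted p = 0.233 and 0.201), and Id1, Id3, Id4 and Msx1 fell in the ovulation window alone. Id2 there went from 231 ± 50.8 to 21.4 ± 8.92 CPM (-3.43 log2 units; SE 0.209, edgeR adjusted p = 5.3e-13), and Id1 fell by 2.04 (43.3 ± 7.06 to 10.5 ± 3.42 CPM). The 11 PFNA libraries lay below every control for both, and 26% of all genes had groups that did not overlap in that window. For 9 of 9 BMP targets the effect differed between windows and was lower in the ovulation window; for Id2 the difference was -4.34 log2 units (limma adjusted p = 2.3e-19). Smad6 and Smad7 stand in both the SMAD and the target list.

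**Figure D5:**
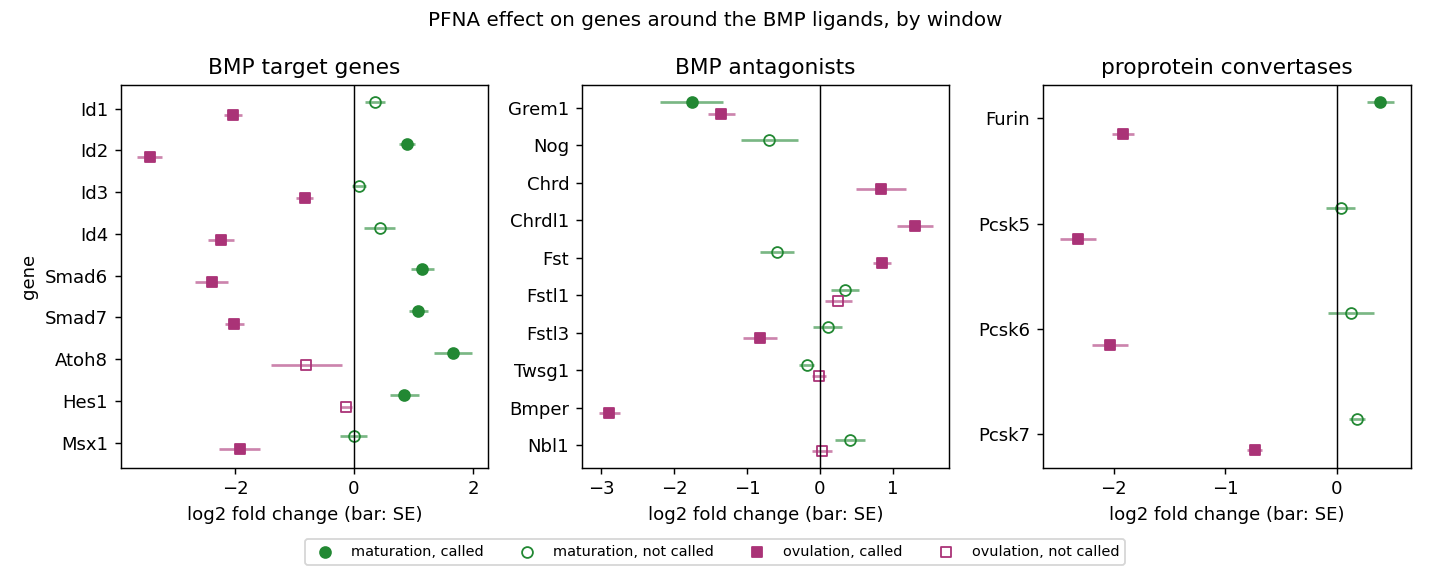
Log2 fold change with SE of BMP target genes, extracellular BMP antagonists and proprotein convertases, circles for the maturation and squares for the ovulation window, filled where the adjusted p was under 0.05. In the ovulation window 7 of 9 targets and 4 of 4 convertases are filled and lie left of 0, and in the maturation window the 5 filled targets lie right of 0.

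Extracellular antagonists bind BMP ligands before they reach a receptor. Of 7 tested in the maturation window 0 rose and 1 fell, Grem1 (341 ± 92.6 to 138 ± 100.6 TPM, -1.75 log2 units, limma adjusted p = 0.0042). Of 9 tested in the ovulation window 3 rose and 3 fell, so 6 were called, against 73.2% of all genes there and 29.4% in the maturation window. Chrdl1, a chordin-like protein, was a low transcript that rose from 3.22 ± 0.870 to 7.97 ± 4.23 CPM (1.30 log2 units, edgeR adjusted p = 4.5e-05), above every control in 8 of 11 libraries. Bmper, a BMP-binding regulator, fell from 375 ± 39.2 to 50.6 ± 17.4 CPM (-2.89 log2 units, edgeR adjusted p = 1.2e-14).

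Proprotein convertases, which cleave the precursors of TGF-beta family ligands, had 1 of 4 higher in the maturation window and 4 of 4 lower in the ovulation window, where 35.3% of all genes were lower (13.3% were higher in the maturation window). Furin went from 51.5 ± 9.54 to 68.3 ± 14.3 TPM in the first (0.39, limma adjusted p = 0.017). In the second it fell from 362 ± 54.7 to 95.7 ± 17.6 CPM (-1.92 log2 units, SE 0.0997, edgeR adjusted p = 1.1e-14). Pcsk5 fell from 936 ± 166 to 187 ± 57.7 CPM, and Pcsk6 and Pcsk7, named after their values were seen, fell by 2.03 and 0.74 log2 units. All 11 PFNA libraries lay below every control for each of the 4. In the ovulation window the groups did not overlap, in either direction, for 26% of all genes. The effect was lower in the ovulation window for 4 of 4.

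Of the genes that oocyte factors are known to regulate in cumulus cells, 1 of 8 rose and 5 fell in the maturation window, and 5 of 10 rose and 5 fell in the ovulation window. Over all genes 29.4% were called in the first window and 73.2% in the second. Ptgs2, the prostaglandin synthase of cumulus expansion, went from 5645 ± 1997 to 153 ± 57.0 CPM in the ovulation window (-5.21 log2 units, edgeR adjusted p = 7.7e-15). Ptx3, a matrix protein of the expanded cumulus, went from 1113 ± 207 to 13.2 ± 9.40 CPM (-6.39, edgeR adjusted p = 2.5e-14). Both genes also respond to hCG. In the other direction Npr2, the natriuretic peptide receptor that holds meiotic arrest, rose from 117 ± 12.8 to 386 ± 61.7 CPM (1.72, edgeR adjusted p = 2.8e-15), and Slc38a3, an amino acid transporter, rose from 0.497 ± 0.406 to 82.9 ± 47.6 CPM. In the maturation window Npr2 fell (201.0 ± 26.0 to 138 ± 37.0 TPM, -0.59, limma adjusted p = 0.0066), while Slc38a3 rose from 5.71 ± 2.47 to 19.9 ± 8.08 TPM.

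Downstream of KIT, 9 of 27 signalling genes rose and 0 fell in the maturation window (median 0.17), and 10 of 28 rose and 14 fell in the ovulation window (median -0.15). The 9 called of 27 are near the background of 29.4%, and the 10 of 28 higher are near 37.9%. In the maturation window Pik3r1, a regulatory subunit of PI3-kinase, rose from 32.1 ± 7.70 to 56.7 ± 19.1 TPM (0.76, limma adjusted p = 0.0031). With hCG the adaptor Gab2 rose from 128 ± 10.8 to 306 ± 39.1 CPM (1.25, edgeR adjusted p = 1.4e-14), and the adaptor Grb2 fell from 152.5 ± 21.1 to 85.1 ± 12.5 CPM (-0.84, edgeR adjusted p = 1.3e-09). Both groups of 11 and 12 libraries were apart for each, as for 26% of all genes in the ovulation window. Of 3 tested proteases that shed KITL from the cell surface, 0 were called in the maturation window (limma; Mmp9 alone had an unadjusted p under 0.05, at 0.045) and 1, Mmp9, rose in the ovulation window (6.56 ± 5.16 to 13.8 ± 7.18 CPM, edgeR adjusted p = 0.025).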

How the data were processed

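RNA was isolated with a PicoPure kit, and messenger RNA was captured on poly-T beads and copied with random hexamers, per the labels' protocols. The submitters' processing notes name Partek, Bowtie2 and HISAT2, without versions; the genome build, counter and strand setting were not given in the sources used here. The maturation table, deposited by the authors, holds TPM values (the libraries have equal sums, 80.2% of values not whole within 0.01), so its depth is unknown. The ovulation table holds estimated counts deposited by the authors (9.82% not whole within 0.01), which were rounded; totals ran from 11961025 to 16045632 in controls and from 10600720 to 19511131 with PFNA. Columns were matched to samples by name; 1 maturation control column differs by a letter from its sample's title. Maturation control replicate 4 was not analysed here.

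TPM values were tested with limma 3.58.1 on log2(TPM + 1), trend and robust, keeping genes whose mean reached 1 TPM; fold changes on that scale understate low genes. Counts were tested with edgeR 4.0.16 (filterByExpr, TMM, quasi-likelihood, robust), with DESeq2 1.42.0 as an alternative, in R 4.3.3. CPM values are TMM-normalized. Windows were compared by the difference of limma effects within each table. Ratios to oocyte markers and correlations used 100000 permutations, two-sided (SciPy 1.17.1). Calls are at an adjusted p under 0.05 (Benjamini-Hochberg). Named genes are all 8 members, up to 2 higher and 2 lower genes of each list by p, and the 3 nearest genes by correlation; not all of these are printed, and 1 gene of the antagonist list is not reported here. Members and lists were chosen with earlier results of these data known. The limma and edgeR fits and the permutation test of the ratios were checked on simulated data. Those data held no split like that of the maturation PFNA libraries. The correlation tests and the calls of a difference between windows were not checked against known changes.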

Additional observations from a re-analysis of the deposited data

Results flagged for a closer look

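In the maturation PFNA group, replicate 10 stood far from the other 9 libraries for 3 of the 8 members: Gdf9 at 93.8 TPM (next highest 33.2), Bmp15 at 110.8 TPM (next 30.3) and Kit at 10.6 TPM (next 6.58). Chance flags about 5% of groups, or 0.4 of the 8 values searched. The 8 genes share these libraries, so their flags are not independent. Only this group was searched, since the rule covers groups of at most 10 libraries. Values in groups of 11 or 12 libraries, such as Bmpr2 at 2469 CPM in ovulation PFNA replicate 6, could not be flagged. That library also had the highest oocyte marker sum (502 TPM) and the highest endothelial marker sum (220.3 TPM) of its group. Its granulosa marker sum (17503 TPM) was the lowest of the group. Its immune (156 TPM) and surface epithelium (58.2 TPM) marker sums were the highest. The part of this cell make-up in the 3 flagged values was not tested.

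The PFNA effect differed between the windows (ovulation minus maturation, log2 units, limma adjusted p under 0.05) for Gdf9 at 4.32, Bmp15 at 3.996, Kit at 1.05, Bmpr1a at -0.95 and Bmpr1b at 0.56. It also differed for 3 of 6 other ligands, 6 of 9 other receptors, 11 of 12 SMAD genes, 9 of 9 BMP targets, 2 of 6 antagonists, 4 of 4 convertases, 6 of 8 cumulus targets and 19 of 27 KIT signalling genes, beside 67.7% of all genes tested.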

How the results depend on the processing

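Of 1118 single-gene values recomputed under another setting, 1055 kept their direction and side of the threshold, 29 lost and 7 gained a call, and 27 changed sign, each of the last with no call under that setting. With the oocyte marker share as a covariate the maturation window held 0 called members of 7 and 938 called genes in place of 4029; the signs turned for Bmp15 (0.39), Kitl (-0.26) and Bmpr1b (-0.059). The tests of the ratio to oocyte markers gave 6 calls of 8, and 2 with the replicate block, in which each of the 4 lost calls had an adjusted permutation p of 0.052. Whether replicate numbers pair the libraries was not given in the sources used here, and low correlations cannot settle it. Same-numbered deviations correlated at -0.14 to 0.17 over 9 maturation pairs (1 over 0.1, 1 library best matched by its own number) and at -0.19 to 0.07 over 11 ovulation pairs (0 and 0). With the replicate block as a term, 2890 genes and 2 members were called in the maturation window and 9297 genes and 6 members in the ovulation window, where Bmp15 (adjusted p = 0.061) and Bmpr2 (0.131) were not called; Bmpr1b in the maturation window was -0.031, Kitl gained a difference between windows (1.30, adjusted p = 0.033), and the Bmpr2 difference was 0.091. That Bmpr2 difference was 0.051 with median-ratio size factors. Leaving out each library in turn gave 3585 to 4587 genes and 2 members in the maturation window, 9655 to 10026 genes and 7 to 8 members in the ovulation window, 5 to 6 members that differed between windows and 5 to 7 ratio calls; the Bmpr2 difference ran from -0.084 to 0.061 and the ovulation Bmp15 ratio from -0.030 to 0.31. The Kitl difference between windows was called without maturation PFNA replicate 5 or 8 or ovulation PFNA replicate 4 (adjusted p 0.028 to 0.046), and the ovulation Kit ratio without PFNA replicate 6 or control replicate 1 (0.033 and 0.045). Leaving out maturation PFNA replicates 1 and 2, chosen because their oocyte genes lay near the controls, gave 5200 genes and 3 members, with Kitl at 1.06 (adjusted p = 0.017). With no filter the ovulation median of all genes was 0.26 in place of 0.04, and 12189 genes were called. The cause of these changes was not tested. Unknown depth limits the maturation values at 0, and 5 estimated counts limit Bmp15 in ovulation PFNA replicate 5.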
